A study of Mus musculus with 37 samples.

Results

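Long CDR3 clonotypes are the rearranged T cell receptor beta (TRB) genes whose complementarity-determining loop 3 (CDR3), the part that meets antigen most directly, has 17 or more amino acid residues. They were taken from the clonotype tables by length alone, and made up 58481 of 1704980 clonotypes in 37 lymph node libraries, 1 library per mouse. A further 1583810 clonotypes had 12 to 16 residues and serve as the comparison, and 62689 were shorter. A clonotype is a nucleotide CDR3 with its variable (TRBV) and joining (TRBJ) segment, read from genomic DNA, so reads stand for rearranged genes and not for transcripts.

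Of the 37 mice, 32 were MMTV-PyMT females, in which a mammary promoter drives a viral oncogene and tumors arise in the mammary gland, and 5 were FVBN mice of a group named WTNT. At d105 there were 6 mice given PLX+PTX+aPD-1 with the suffix R, 4 with the suffix NR, 6 given PLX+PTX, 2 given PTX and the 5 WTNT mice. The d95 mice were 5 R, 3 NR, 3 of PLX+PTX and 3 of PTX. PLX3397, which inhibits the macrophage receptor CSF1R, was fed at 40 mg/kg per day from 80 days of age, PTX was injected at 10 mg/kg every 5 days from 85 days, and aPD-1, an antibody against an inhibitory receptor of T cells, started at 87 days with 1.0 mg, followed by 0.5 mg at the same spacing. Per the protocol in the labels, mice without PLX3397 ate control chow and mice without aPD-1 received an isotype control antibody. The labels do not spell out R, NR or WTNT, and they name the tissue only as lymph node, without a sorted cell type.

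A TRB gene is assembled in the thymus by joining a V, a D and a J segment, and the ends are trimmed and filled with untemplated N bases on the way. The CDR3 spans these joints, so its length depends on which segments were joined, how much of each end was kept and how many bases were added. The locus has a D segment before each cluster of J segments: TRBD1 can join either cluster, while TRBD2, which lies behind the TRBJ1 cluster, normally joins only TRBJ2. All 34 segments in the tables were found in RefSeq's annotation (GRCm38.p6), on chromosome 6. The build used for alignment is not given in the sources used here.

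Shown first are 5 of the 6 long receptors found in 11 or more libraries, because they show how a common long CDR3 is built. Each is the nucleotide form of its receptor found in the most libraries, with ties broken by reads. In the order shown, these forms were in 5, 8, 3, 4 and 3 libraries. Capitals mark the bases between the V and J alignment ends.
TRBV5 TRBJ2-2: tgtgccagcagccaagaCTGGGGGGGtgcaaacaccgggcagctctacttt
TRBV5 TRBJ2-3: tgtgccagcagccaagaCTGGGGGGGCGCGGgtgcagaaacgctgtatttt
TRBV1 TRBJ2-3: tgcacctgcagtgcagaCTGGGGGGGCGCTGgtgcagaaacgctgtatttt
TRBV2 TRBJ2-3: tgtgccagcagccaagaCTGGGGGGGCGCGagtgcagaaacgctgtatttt
TRBV24 TRBJ2-3: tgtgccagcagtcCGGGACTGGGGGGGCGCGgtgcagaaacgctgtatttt
All 5 hold a run of G between V and J and end in TRBJ2-2 or TRBJ2-3.

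The next 4 are long TRBJ2 clonotypes in which the core of TRBD1 (ACAGGG) stands before the core of TRBD2 (ACTGGG). They were chosen by number of libraries and then reads, and capitals mark the 2 cores.
TRBV2 TRBJ2-3: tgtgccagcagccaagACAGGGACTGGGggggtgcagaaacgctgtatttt
TRBV24 TRBJ2-2: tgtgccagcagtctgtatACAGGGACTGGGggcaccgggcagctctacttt
TRBV26 TRBJ2-1: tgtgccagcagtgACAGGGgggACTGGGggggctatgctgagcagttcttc
TRBV5 TRBJ2-1: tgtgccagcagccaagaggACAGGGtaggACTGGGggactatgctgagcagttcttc
In some of them part of the first core overlaps the end of the V alignment, so a match of letters does not assign a D segment.

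The last 4 belong to unusual sets described further on. In the TRBJ1-7 pair, capitals mark the last 30 bases, and in the TRBV12-1 pair the codons of an inner FCAS.
TRBV29 TRBJ1-7: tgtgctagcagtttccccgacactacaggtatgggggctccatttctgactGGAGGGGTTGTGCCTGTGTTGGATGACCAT
TRBV3 TRBJ1-7: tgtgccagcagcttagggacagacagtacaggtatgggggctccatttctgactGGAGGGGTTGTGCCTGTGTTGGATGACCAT
TRBV12-1 TRBJ2-5: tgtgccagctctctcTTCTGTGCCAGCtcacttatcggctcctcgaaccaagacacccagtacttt
TRBV12-1 TRBJ2-3: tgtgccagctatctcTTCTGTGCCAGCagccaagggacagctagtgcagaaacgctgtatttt

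Long CDR3s were the thin upper end of the length spectrum. Of the long clonotypes, 46086 (78.8%) had exactly 17 residues, 9291 (15.9%) had 18, 1880 (3.21%) had 19, 930 had 20 to 22 and 294 had 23 or more, up to 46. Either side of the threshold, 17 residues held 2.62% ± 0.24 of clonotypes and 16 residues 9.44% ± 0.62 (SD, n = 37 libraries). By reads the same lengths held 1.88% ± 0.14 and 7.36% ± 0.33.

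**Figure D1:**
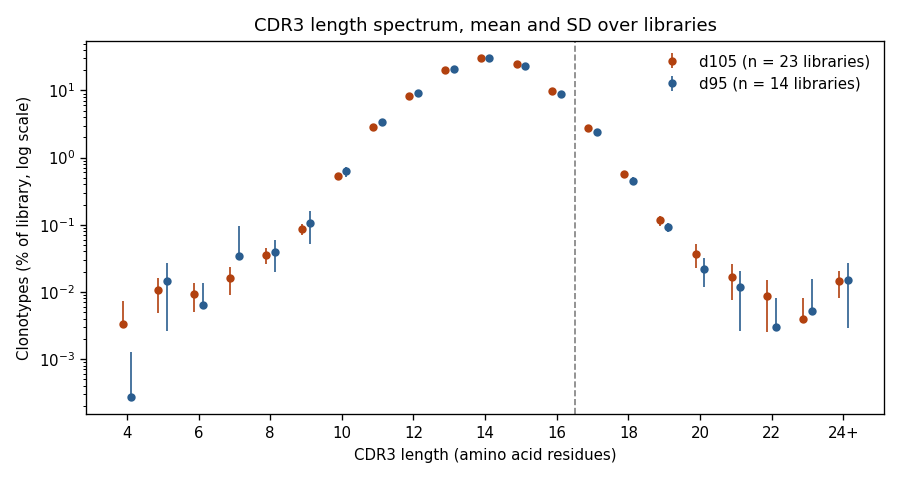
Percent of a library's clonotypes (log axis) at each CDR3 length in residues, as mean and SD over libraries, d105 in orange and d95 in blue; a lower bar is left out where the SD exceeds the mean, and the dashed line separates 16 from 17 residues. The peak lies at 14 residues, and 17 residues hold 2.62% over all 37 libraries.

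Libraries at d105 held 1090573 to 2831566 reads and 848 to 3268 long clonotypes, and libraries at d95 held 90648 to 917752 reads and 67 to 932 long clonotypes. No d95 library reached the reads of any d105 library, so the effects of day and of depth cannot be told apart. Replicate 1 of d95 PLX+PTX+aPD-1_NR is the shallowest, with 67 long clonotypes. No pair among 666 pairs of libraries shared more than 6.36% of the smaller library's exact clonotypes. The labels give mouse numbers at d105 in a lower and a higher run, spread unevenly over treatments (6 R mice are 2 lower and 4 higher, 6 PLX+PTX mice 4 and 2, and the NR and PTX mice all higher), and do not say what sets the runs apart. Intervals below cover counting error only, since PCR reads without molecular identifiers are not independent molecules.

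Counted once each, long clonotypes were a larger share of the libraries at d105 than at d95. In R mice at d105 the lowest, median and highest shares of clonotypes were 3.29, 3.54 and 3.70%, and in PLX+PTX mice at d105 they were 3.42, 3.61 and 4.09%. The 4 NR mice at d105 had 3.51, 3.51, 3.27 and 3.43%. The 2 PTX mice at d105 had 3.76 and 3.58%. At d105 each of these 4 MMTV-PyMT groups lay above every d95 library.
At d95 the R mice had 2.91, 3.01, 2.98, 3.06 and 2.94%. The NR mice at d95 had 2.71, 3.21 and 3.13%, the PLX+PTX mice 3.08, 3.10 and 2.98%, and the PTX mice 2.93, 2.82 and 2.82%. Over treatments, 3.58% ± 0.21 of clonotypes were long at d105 (n = 18) and 2.98% ± 0.13 at d95 (SD, n = 14). The difference within treatments, with treatments weighted equally, was 0.61 percentage points (permutation test, 2-sided, 100000 resamples within treatments, p = 1e-05, the smallest these can give, adjusted p = 0.00016 over 32 tests).
That difference did not pass at equal depth or among larger clonotypes, and its cause was not tested. With each library thinned to 200000 reads, leaving out the shallower one, it was 0.013 points (permutation test, p = 0.77), and among clonotypes of at least 10 reads it was -0.024 points (permutation test, p = 0.60).

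By reads, long clonotypes held less at d105 than at d95, 2.23% ± 0.11 (n = 18) against 2.41% ± 0.17 (SD, n = 14). The difference within treatments was -0.20 percentage points (permutation test, p = 0.00027, adjusted p = 0.0029). At d105 the R mice ran from 2.09 to 2.29%, NR mice from 2.03 to 2.23%, PLX+PTX mice from 2.11 to 2.47% and PTX mice from 2.18 to 2.29%. At d95 the R mice ran from 2.20 to 2.49%, NR mice from 2.30 to 2.54%, PLX+PTX mice from 2.27 to 2.77% and PTX mice from 2.26 to 2.46%, so the days overlap. On the authors' normalized clone count the shares were 2.07% at d105 and 2.05% at d95, and the difference within treatments was 0.0052 points and did not pass (permutation test, adjusted p = 0.95). CDR3s of 18 or more residues held 0.403% ± 0.024 of reads at d105 and 0.432% ± 0.055 at d95. Their difference within treatments of -0.034 points did not pass (permutation test, adjusted p = 0.44), but was -7.83% of the d95 share, against -8.17% for 17 or more residues.

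**Figure D2:**
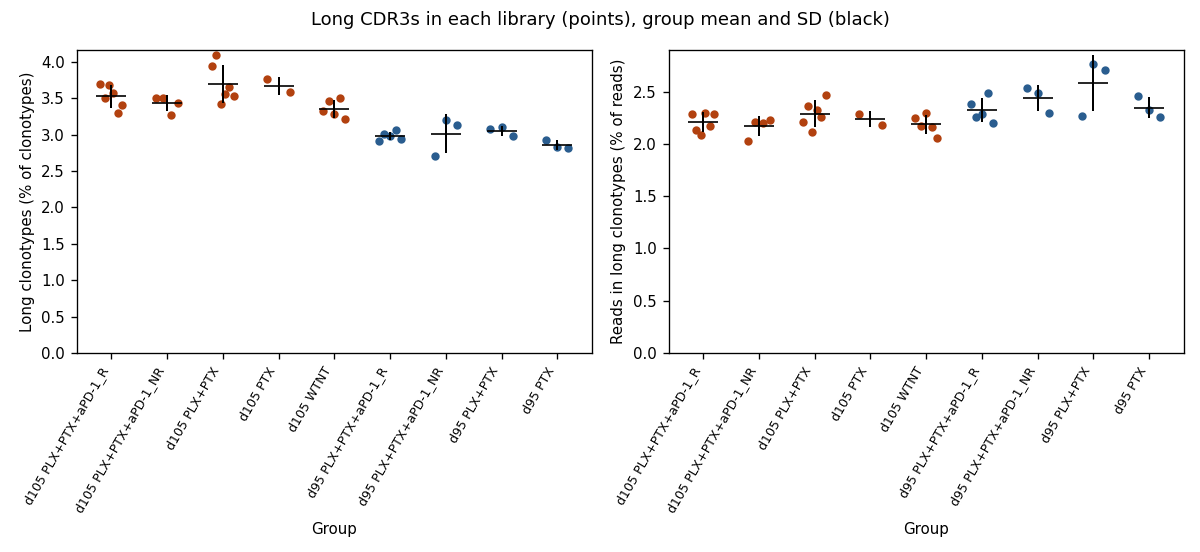
Percent of clonotypes (left) and percent of reads (right) in CDR3s of 17 or more residues, 1 point per library, by group, with the group mean and SD in black, d105 in orange and d95 in blue; both axes start at 0. Shares of clonotypes average 3.53% over the 23 d105 libraries and 2.98% over the 14 d95 libraries, while shares of reads average 2.22% and 2.41%.

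Treatment and genotype groups within a day were not separated by any of the 4 measures tested: share of clonotypes, share of reads, clone size relative to 12 to 16 residues, and percent found in another library. Of 28 such tests 0 passed an adjusted p of 0.05, and 1 had an unadjusted p under 0.05. That one set MMTV-PyMT against WTNT mice at d105. All of these MMTV-PyMT mice were given PTX, and no agent is listed for the WTNT mice. Genotype and treatment therefore cannot be told apart in this comparison. Long clonotypes were 3.58% ± 0.21 of clonotypes in the MMTV-PyMT mice (n = 18) and 3.36% ± 0.12 in WTNT mice (SD, n = 5), a difference of 0.22 points (exact permutation test, p = 0.032, adjusted p = 0.26). The WTNT mice had 3.32, 3.46, 3.29, 3.50 and 3.21%. The last lies below all 18 MMTV-PyMT mice, and the other 4 lie within their range. The MMTV-PyMT mice with the higher mouse numbers alone (n = 12) were 0.14 points above the WTNT mice (exact permutation test, p = 0.071).
At d105, mice given all 3 agents had 3.49% ± 0.14 (n = 10) and PLX+PTX mice 3.70% ± 0.26 (SD, n = 6) of clonotypes in long CDR3s (exact permutation test, p = 0.053, adjusted p = 0.34). The difference was -0.21 points over all these mice. Among the higher mouse numbers, with 8 mice given all 3 agents and 2 PLX+PTX mice, it was -0.028 points (exact permutation test, p = 0.80). Among the lower ones, with 2 and 4 mice, it was -0.20 points (3.60% ± 0.14 and 3.80% ± 0.26, exact permutation test, p = 0.47). R and NR mice at d105 had 3.53% ± 0.16 (n = 6) and 3.43% ± 0.11 (SD, n = 4), with p = 0.33 in the exact permutation test. R and NR mice at d95 had 2.98% ± 0.06 (n = 5) and 3.01% ± 0.26 (SD, n = 3), with p = 0.82 in the exact permutation test. PLX+PTX and PTX mice at d95 had 3.05% ± 0.07 and 2.86% ± 0.06 (SD, n = 3 each) and did not overlap, but 3 against 3 cannot go below the p = 0.10 found by the exact permutation test.

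Long clonotypes were carried by fewer reads than clonotypes of 12 to 16 residues in every library. They averaged 19.3 ± 5.4 reads, against 28.1 ± 8.9 reads at 12 to 16 residues (SD, n = 37), a log2 ratio of -0.52 that was below 0 in 37 of 37 libraries (sign-flip permutation over libraries, p = 1e-05, the smallest it can give). Clonotypes of 1 read were 30.5% ± 7.4 of long and 20.2% ± 3.0 of 12 to 16 residue clonotypes, higher among long ones in 35 of 37 libraries (adjusted p = 1.1e-05 in the permutation test). The log2 ratio of size was -0.29 among clonotypes of at least 10 reads and -0.49 with 12 to 16 residue clonotypes reweighted to the V and J pairs of the long ones.
The lowest base quality in a long CDR3, a deposited score, averaged 36.2 ± 0.2, against 37.6 ± 0.1 at 12 to 16 residues (SD, n = 37), and its part in these values was not tested. The log2 ratio of size was lower at d105 than at d95, -0.67 ± 0.09 (n = 18) against -0.30 ± 0.11 (SD, n = 14), and the days did not overlap. The difference within treatments was -0.39 (permutation test, p = 1e-05, adjusted p = 0.00016), with depth differing between the days as above. It was -0.13 with each library thinned to 200000 reads (permutation test, adjusted p = 0.00064) and -0.13 among clonotypes of at least 10 reads (adjusted p = 0.00032 in the permutation test), so it was smaller but still past the threshold. The percent of long receptors found in another library was 12.2 ± 0.9 at d105 (n = 18) and 13.1 ± 1.5 at d95 (SD, n = 14), and the difference of -0.95 points did not pass (permutation test, p = 0.10, adjusted p = 0.36). It passed without d95 PTX replicate 1, at -1.30 points (permutation test, adjusted p = 0.036). Depth and the number of libraries set the level of this percent, and depth differs between the days.

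Large clones seldom had long CDR3s. At d105, long CDR3s were 5.62% ± 0.48 of clonotypes of 1 read, 3.48% ± 0.36 of those of 10 to 19 reads and 0.70% ± 0.41 of those of 100 or more reads (SD, n = 23). At d95 the same shares were 3.90% ± 0.87, 3.36% ± 0.49 and 0.61% ± 0.65 (SD, n = 14), the last from 23 long among 3244 clonotypes. Over clonotypes of any size, 3.53% ± 0.21 were long at d105 (n = 23) and 2.98% ± 0.13 at d95 (SD, n = 14). Among the 100 largest clonotypes of each library, 14 libraries had 0 long, 15 had 1, 4 had 2, 3 had 3 and 1 had 4.

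**Figure D3:**
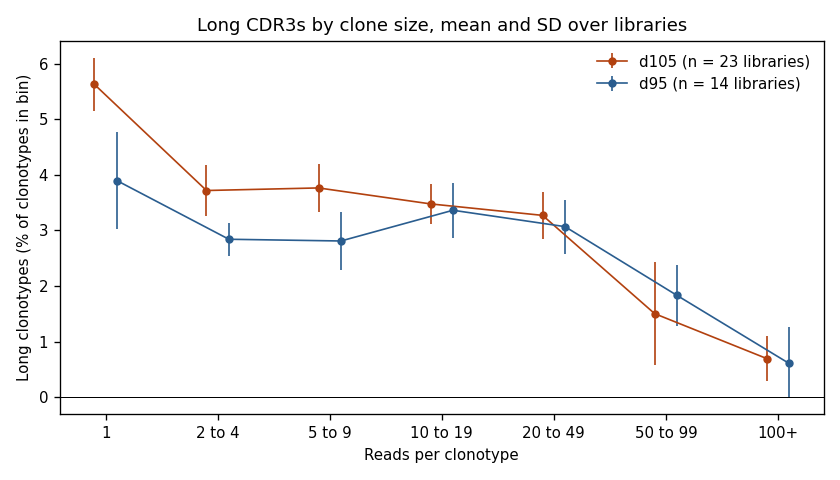
Percent of clonotypes with a long CDR3 (vertical axis) among clonotypes of a given number of reads (horizontal axis), as mean and SD over libraries, d105 in orange and d95 in blue; the lower bar at 100 or more reads stops at 0 for d95. The share is highest at 1 read, 5.62% at d105 and 3.90% at d95, and lowest at 100 or more reads, 0.70% and 0.61%.

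The largest long clone of each group was a different receptor, named here by its segments. In PLX+PTX mice at d105 it was a TRBV24 TRBJ1-2 receptor, with 1408 reads or 0.106% of replicate 6 (95% Wilson interval 0.101 to 0.112%), where it ranked 3. In R mice at d105 it was a TRBV2 TRBJ2-3 receptor, with 860 reads or 0.0524% of replicate 1 (0.0490 to 0.0560%), where it ranked 2. In NR mice at d95 it was a TRBV19 TRBJ2-2 receptor, with 131 reads or 0.145% of replicate 1 (0.122 to 0.171%), the shallow library.
The NR mice at d105 had a TRBV1 TRBJ2-3 receptor at 0.0272% of replicate 4. PTX mice at d105 had a TRBV1 TRBJ2-3 receptor at 0.0308% of replicate 1. WTNT mice had a TRBV1 TRBJ2-3 receptor at 0.0184% of replicate 3.
At d95, R mice had a TRBV1 TRBJ2-4 receptor at 0.0319% of replicate 3. PLX+PTX mice at d95 had a TRBV1 TRBJ2-5 receptor at 0.0528% of replicate 2, and PTX mice at d95 had a TRBV19 TRBJ2-2 receptor at 0.0342% of replicate 1. Of these 9 clones, 7 were found in 1 library, the R clone of d105 in 2 and the PTX clone of d105 in 5. Being found in 1 library was common among long receptors at large, at 50079 of 52864.

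Use of V and J segments differed between long and 12 to 16 residue CDR3s for every segment that passed the filter on low counts. All 25 segments passed the threshold (edgeR quasi-likelihood test with library as a block, adjusted p at most 0.05), which is 100% of those tested, so a call says little and sizes are given. With DESeq2 22 of the 25 passed, all but TRBJ1-3, TRBJ1-4 and TRBV23, and with edgeR's TMM scaling 23 passed, all but TRBJ1-3 and TRBJ2-1. Shares of segments are relative, so a higher share of one lowers the others.
Among J segments, TRBJ2-3 made up 21.8% ± 1.4 of long and 11.4% ± 0.6 of 12 to 16 residue clonotypes (SD, n = 37; log2 ratio 0.93 ± 0.02 SE). TRBJ2-2 made up 19.1% ± 1.8 of long and 8.04% ± 0.37 of the others (log2 ratio 1.24 ± 0.02 SE). TRBJ1-6, at 7.20 against 3.83%, and TRBJ2-4, at 14.2 against 8.92%, had log2 ratios of 0.92 and 0.68. These 4 were higher among long clonotypes in 36 or 37 of 37 libraries.
TRBJ2-7 made up 4.58% ± 0.62 of long and 22.01% ± 0.81 of 12 to 16 residue clonotypes (log2 ratio -2.28 ± 0.02 SE), the lowest ratio of any J segment. TRBJ1-1, TRBJ1-2 and TRBJ1-5 had log2 ratios of -2.09, -1.62 and -1.04. TRBJ2-5 was at -0.35, TRBJ1-4 at -0.15, TRBJ1-3 at -0.10 and TRBJ2-1 at -0.04. The direction of TRBJ1-3 and TRBJ2-1 turned with another scaling: DESeq2 gave 0.030 and 0.083.
Seen from the segment, 7.74% ± 0.70 of TRBJ2-2 clonotypes were long, and 0.68% ± 0.11 of TRBJ2-7 clonotypes (SD, n = 37).

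Among V segments, TRBV5 made up 17.1% ± 1.9 of long and 10.7% ± 0.6 of 12 to 16 residue clonotypes (SD, n = 37; log2 ratio 0.67 ± 0.02 SE). TRBV2, TRBV24 and TRBV1 had log2 ratios of 0.49, 0.28 and 0.23. The lowest were TRBV30 at -2.19, TRBV20 at -2.14, TRBV26 at -1.11, TRBV4 at -1.01 and TRBV19 at -0.80. Of TRBV5 clonotypes 5.32% ± 0.67 were long, against 0.63% ± 0.68 of TRBV30 clonotypes.

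**Figure D4:**
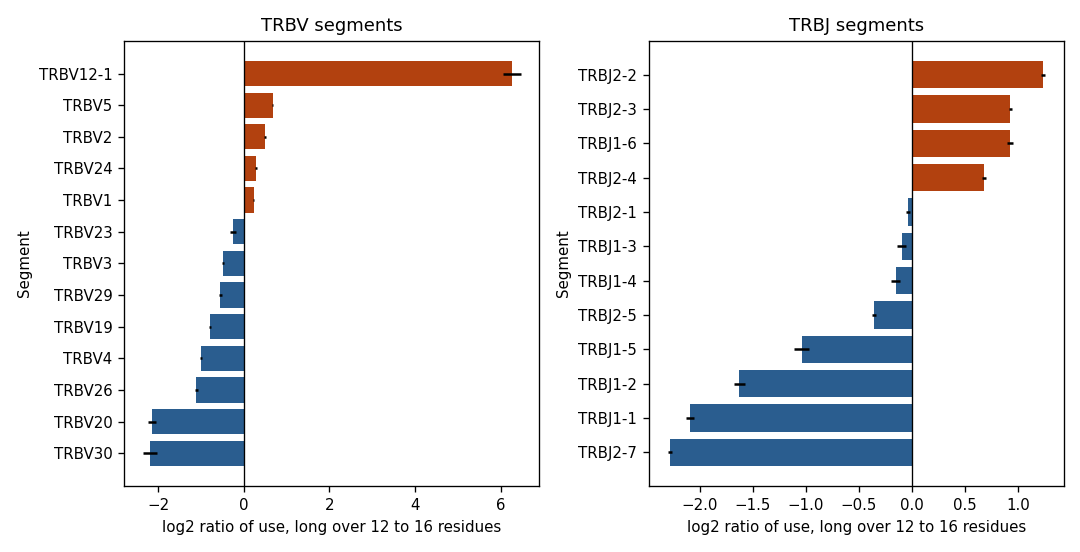
Log2 ratio of segment use, long over 12 to 16 residue clonotypes, for the 13 TRBV (left) and 12 TRBJ (right) segments fitted, with the standard error as a black bar, higher in orange and lower in blue. TRBJ2-2 stands at 1.24 and TRBJ2-7 at -2.28, and TRBV12-1 at 6.26.

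TRBV12-1 is a segment apart. It is 1 of 9 V segments on a list known to be missing from FVB/N mice by a germline deletion, and 367 of its 500 clonotypes were long (log2 ratio 6.26). It entered the fit only through its long clonotypes, with 119 of 12 to 16 residues, so the fit had to show a difference. The other 8 listed segments gave 28 long and 769 clonotypes of 12 to 16 residues in all.
Of the 367 long ones, 360 hold an inner FCAS, the end of a V segment's framework and the start of a CDR3, after the first 4 residues, and 359 had a single read. In all long clonotypes the inner FCAS occurred 386 times, against 5 times at 12 to 16 residues. The most reads on a long TRBV12-1 clonotype were 30, on the TRBJ2-5 clonotype shown above, and all 367 together held 432 reads in 33 libraries.
The number of long TRBV12-1 clonotypes varied between libraries, from 0 to 51 with a median of 7. At d105 the R mice had 6 to 23, the NR mice 25, 10, 10 and 11, the PLX+PTX mice 5 to 18, the 2 PTX mice 26 and 21, and the 5 WTNT mice 12, 51, 10, 6 and 9. All mice at d95 had 0 to 6, in libraries with fewer reads. What the inner FCAS arises from was not tested.

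TRBJ1-7 holds most of the clonotypes of 23 or more residues, though the longest, of 46 residues, has another J. Of its 215 clonotypes 187 were long, all of them of 23 to 35 residues, and they are 187 of the 294 clonotypes of 23 or more residues. The small second rise of the length spectrum lies there, with 75 clonotypes of any J at 26 and 54 at 27 residues, against 29 at 25. None of the 187 ends in the usual phenylalanine, and 186 share the last 30 bases shown in capitals above. Unlike the TRBV12-1 set they were not mostly single reads: 12 of 187 had 1 read, the median was 16 reads, and the most was 145 reads on the TRBV29 clonotype shown above. They were found in 34 libraries.
TRBJ1-7 did not pass the filter of the fit, since only 4 libraries held 10 or more long ones, and it had 7 clonotypes of 12 to 16 residues in all. Without the filter its log2 ratio was 8.32 (edgeR). The longest receptors found in 2 libraries were TRBV5 receptors of this set, 1 with 27 residues and 5 reads and 2 with 26 residues and 37 and 34 reads.

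Within long clonotypes, segment use was not separated between treatment or genotype groups of a day. In each of the 7 comparisons 0 segments passed (0% of 23 at d105 and of 17 at d95, edgeR), and 0 to 4 had an unadjusted p under 0.05. DESeq2 also called 0. The smallest p belonged to TRBV12-1 between PLX+PTX and PTX mice at d105 (log2 ratio -2.001 ± 0.64 SE, edgeR adjusted p = 0.065). Without the filter on low counts it passed, at an adjusted p of 0.045 by edgeR. Leaving out PLX+PTX replicate 2 called 3 segments, TRBV12-1, TRBV19 and TRBV2.
In the other comparisons the smallest p belonged to TRBJ2-5 for R against NR at d105 (log2 ratio 0.19), TRBJ1-3 for all 3 agents against PLX+PTX (0.20) and TRBJ2-7 for MMTV-PyMT against WTNT (0.16). At d95 it was TRBJ2-4 for R against NR (0.28), TRBV3 for all 3 agents against PLX+PTX (0.41) and TRBV29 for PLX+PTX against PTX (0.56). Leaving out PLX+PTX replicate 1 at d95 called TRBV3.

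Between days, whose depths do not overlap, 9 of 23 segments passed (39.1%, edgeR), 5 higher and 4 lower at d105. DESeq2 called 11 of 23, 5 higher and 6 lower. On shares of reads limma called 10 of 23, 8 higher and 2 lower. The part of depth in these calls was not tested. By edgeR, higher at d105 than at d95 were TRBV12-1 (log2 ratio 1.32), TRBV26 (0.37), TRBV3 (0.27), TRBJ2-5 (0.24) and TRBV5 (0.19). TRBV12-1 passed the filter only through d105, where 13 libraries held 10 or more and no d95 library more than 6, so that it had to differ. Lower were TRBJ1-6 (-0.22), TRBV1 (-0.13), TRBJ2-2 (-0.13) and TRBV2 (-0.12). The smallest adjusted p was 0.0016 for TRBJ2-5 (edgeR), and leaving out d95 PTX replicate 1 left 5 calls, TRBJ1-6, TRBJ2-2, TRBJ2-5, TRBV3 and TRBV5. On shares of reads TRBV12-1 was at 0.37 and did not pass (limma adjusted p = 0.50).

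The D segment left a longer trace in long CDR3s. Among TRBJ2 clonotypes, 76.4% ± 2.2 of long ones were assigned TRBD2, against 43.9% ± 1.2 at 12 to 16 residues, and 1.56% ± 0.49 against 18.6% ± 0.9 had no D assigned (SD, n = 37). TRBD1 was assigned to a smaller share of long than of 12 to 16 residue TRBJ2 clonotypes. Among TRBJ1 clonotypes, 81.8% ± 5.7 of long and 63.1% ± 0.8 of 12 to 16 residue ones were assigned TRBD1. Some TRBJ1 clonotypes were assigned TRBD2, which normally joins only TRBJ2. They were 9.94% ± 2.68 of long and 6.60% ± 0.89 of 12 to 16 residue ones (SD, n = 37). How many assigned D segments are wrong was not tested.
By letters, read on the coding strand only, the TRBD2 core ACTGGG was found in 45.1% ± 2.4 of long and 19.5% ± 1.1 of 12 to 16 residue clonotypes (SD, n = 37), higher in 37 of 37 libraries (permutation test, adjusted p = 1.1e-05). The TRBD1 core ACAGGG was found in 19.5% ± 1.7 and 18.4% ± 0.5, higher in 27 of 37 (permutation test, adjusted p = 0.00059). A longer CDR3 offers more places for any 6 letters.

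Both cores in order, TRBD1 before TRBD2, were seen in 304 of 49057 long TRBJ2 clonotypes and in 443 of 1234326 of 12 to 16 residues. Per library the shares were 0.75% ± 0.87 and 0.033% ± 0.014 (SD, n = 37), higher among long ones in 35 of 37 libraries (permutation test, adjusted p = 1.1e-05). Without the shallow library d95 PLX+PTX+aPD-1_NR replicate 1, whose own value was 5.56%, they were 0.62% ± 0.32 and 0.034% ± 0.013 (n = 36). In TRBJ1, whose cluster lies before TRBD2, the ordered pair was seen in 1 of 9424 long clonotypes. The reverse order was seen in 26 of 9424 long TRBJ1 and 44 of 49057 long TRBJ2 clonotypes. At 12 to 16 residues it was seen in 91 of 349484 TRBJ1 and 256 of 1234326 TRBJ2 clonotypes. The ordered pair was seen there in 8 and 443. Both orders were thus a larger share of long than of 12 to 16 residue TRBJ2 clonotypes, and how much comes with length alone was not tested.
The share in TRBJ2 grew with length. It was 0.094% at 16 residues (95% Wilson interval 0.079 to 0.111%), 0.35% at 17 (0.30 to 0.41%), 1.01% at 18 (0.81 to 1.26%), 3.63% at 19 (2.80 to 4.70%) and 6.90% at 20 (4.85 to 9.74%), and 1.49% at 21 or more (0.64 to 3.44%), over pooled libraries.
The 304 came from 35 libraries and 297 merged receptors. Among all long clonotypes, 30.5% ± 7.4 had 1 read (mean and SD over 37 libraries). Of the 304, 126 had 1 read and 124 had 10 or more. They were 0.59% of long TRBJ2 clonotypes in R mice, 0.63% in NR mice, 0.62% in PLX+PTX mice, 0.77% in PTX mice and 0.61% in WTNT mice at d105. At d95 they were 0.66% in R, 0.55% in NR, 0.52% in PLX+PTX and 0.65% in PTX mice.

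**Figure D5:**
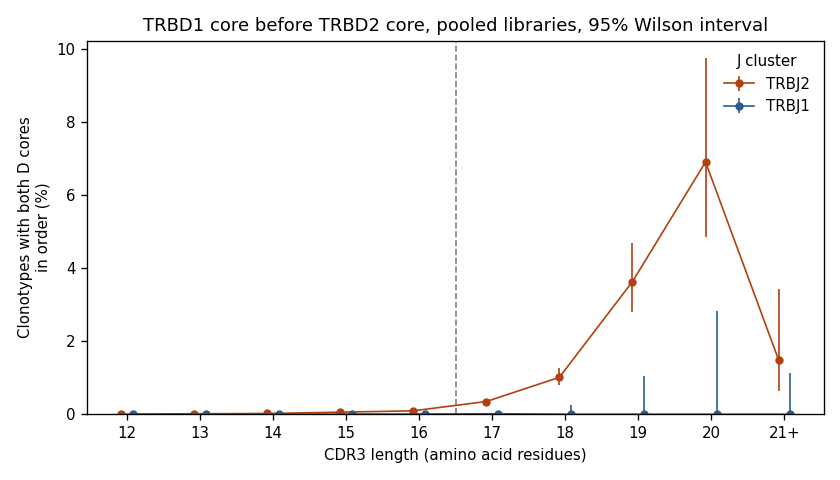
Percent of clonotypes (vertical axis) at each CDR3 length in residues (horizontal axis) in which the TRBD1 core stands before the TRBD2 core, pooled over libraries, TRBJ2 in orange and TRBJ1 in blue, with 95% Wilson intervals. TRBJ2 reaches 6.90% at 20 residues, while TRBJ1 stays at or near 0 at every length.

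The extra length came from every part of the junction, and the rule fixes that the sum is larger, so these values are a description. Among clonotypes with a D assigned (97.5% of long and 79.1% of 12 to 16 residue ones), long CDR3s had 9.31 more bases on average. J gave 3.02 of them, D 2.50, V 1.60, the N bases between V and D 1.26 and those between D and J 0.92. Leaving out clonotypes with no D assigned removed a larger share at 12 to 16 residues. Its effect on the order of these parts was not tested. The V end was untrimmed in 38.0% ± 1.7 of long and 15.3% ± 0.5 of 12 to 16 residue clonotypes, and the J end in 42.8% ± 2.3 and 18.2% ± 0.5 (SD, n = 37).

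Inner residues, without the first 4 and the last 6, differed for 17 of 20 amino acids (85% called, limma, adjusted p at most 0.05). Glycine made up 29.3% ± 0.7 of inner residues in long and 26.9% ± 0.5 in 12 to 16 residue CDR3s (SD, n = 37; log2 ratio 0.12). With each clonotype counted once, the largest log2 ratios were those of cysteine (1.06, at 0.23 against 0.049%), tyrosine (0.54), asparagine (0.14) and serine (0.13). Weighted by reads, cysteine was at 0.40 (0.054 against 0.014%), below tyrosine at 0.53. Tryptophan (0.23) and glycine (0.17) were then above asparagine (0.13). With 0.01 instead of 0.1 added to the percents, cysteine was at 1.87. The 386 long clonotypes with an inner FCAS each hold a cysteine there, and their part was not tested. The lowest were isoleucine (-0.47), glutamine (-0.41), histidine (-0.30) and threonine (-0.29).

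Long receptors were seldom shared. Of a library's long receptors, merged over nucleotide forms with the same segments and amino acids, 12.5% ± 1.2 were found in another library, against 51.5% ± 2.9 of those of 12 to 16 residues (SD, n = 37), lower in 37 of 37 (permutation test, adjusted p = 1.1e-05). The gap was as large after reweighting to the same V and J pairs, 12.6 against 51.7%. At 18 or more residues 3.48% were found in another library.
Pooled, 2785 of 52864 long receptors (5.27%) were in 2 or more libraries, against 20.6% of 12 to 16 residue ones. By length the share was 12.7% at 16 residues, 6.38% at 17, 1.88% at 18 and 0.22% at 19. As exact nucleotide sequences 1.44% of long and 10.0% of 12 to 16 residue clonotypes were shared. Of the 2785 shared long receptors, 2433 (87.4%) had more than 1 nucleotide form. At 12 to 16 residues it was 167889 of 188689 shared receptors (89.0%), so this was not particular to long ones. TRBJ2-3 and TRBJ2-2 made up 32.6% and 24.2% of the shared ones, against 20.8% and 18.2% of all long receptors.

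Of the 11 long receptors found in 10 or more libraries, 10 are described, with ties broken by share of reads. All 10 had 17 residues, TRBV1, TRBV2, TRBV5 or TRBV24, and TRBJ2-2 or TRBJ2-3. The TRBV5 TRBJ2-2 receptor that heads the printed set was found in 18 libraries, 14 at d105 and 4 at d95, in 10 nucleotide forms, with 1 to 98 reads. The TRBV5 TRBJ2-3 receptor printed next was found in 16 libraries in 12 forms, with 1 to 20 reads. The printed TRBV1 TRBJ2-3 receptor followed with 12 libraries.
The printed TRBV2 and TRBV24 receptors, both with TRBJ2-3, and a second TRBV5 TRBJ2-2 receptor were each in 11. Another 4, all with TRBJ2-3 and with TRBV24, TRBV2, TRBV1 and TRBV5, were each in 10. None passed 0.0143% of a library's reads.

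Of 5242 receptors found in at least 50% of d105 libraries 2 were long, those first 2, and of 964 at d95 and 2394 over both days 0 were long. The TRBV5 TRBJ2-2 receptor had 2, 98, 53, 2 and 29 reads in 5 of 6 R mice at d105, 31 reads in 1 of 4 NR mice, 1, 1 and 12 reads in 3 of 6 PLX+PTX mice, 60 reads in 1 of 2 PTX mice, and 18, 25, 22 and 38 reads in 4 of 5 WTNT mice. The groups overlap in these reads, and the receptor was missing from some mice of every group.
The TRBV5 TRBJ2-3 receptor had 8, 10, 20 and 1 reads in 4 of 6 R mice at d105, 4 reads in 1 of 4 NR mice, 18, 8 and 5 reads in 3 of 6 PLX+PTX mice, no read in the PTX mice and 7, 1, 1, 10 and 11 reads in the WTNT mice. Neither was called in the 4 comparisons at d105 (limma, where 0, 1, 0 and 0 of all 5242 receptors were called, 0.0191% for the second). Their smallest p was that of the TRBV5 TRBJ2-2 receptor between PLX+PTX and PTX mice (log2 ratio -1.17 ± 0.69 SE, limma adjusted p = 0.57).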

How the data were processed

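Per the file headers, each deposited table lists clonotypes with their segments, CDR3 and clone count. Clone counts as deposited are raw counts of reads for each clonotype. The authors' normalized clone count and nb clone count, and the lowest base quality of a CDR3, are deposited scores. The sources used here do not give the aligner, the clonotype caller or the build. All listed CDR3s were productive.

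The members, lists and tests were chosen with earlier results of these data known. Named segments were every TRBJ, the called TRBV up to 5 per direction by log2 ratio and, between groups, called segments or else the one with the smallest p. Named receptors were the 10 in most libraries, the largest of each group, the 3 longest in 2 libraries and any called.

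Group means were compared by permutation over mice, 2-sided, exact or with 100000 resamples within treatments, with Benjamini-Hochberg adjustment over 32 tests. Paired measures were adjusted together, and 1-read, assigned TRBD2 and no-D shares were added after seeing the data. Segment use was tested on numbers of clonotypes with edgeR 4.0.16 (at least 10 clonotypes in at least 10 libraries or columns of a fit, or in at least 50% of the d95 libraries), and residues and shared receptors with limma 3.58.1 (log2 of percent plus 0.1, or of each receptor's reads scaled to equal library totals, plus 10), with DESeq2 1.42.0 as an alternative, in R 4.3.3. The tests were tested on simulated data. Sequences were copied from the deposited tables.
Replicate numbers follow accession order and name mice only, and p-values measure the spread between mice. The percent found in another library depends on the other libraries. Its values are therefore not independent between mice, which its p-values do not take into account. Comparisons of a day share libraries.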

Additional observations from a re-analysis of the deposited data

Results flagged for a closer look

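In d105 PLX+PTX+aPD-1_NR, replicate 1 stood apart from the other 3 mice in the share of reads in long CDR3s, at 2.03%. It was the only flag among 20 checks of a group and a measure, and chance flags about 1 in 20.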

How the results depend on the processing

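Most results kept their direction and their side of the threshold under the alternatives tried. The difference between d105 and d95 in the share of clonotypes was 0.013 points after thinning and -0.024 points among clonotypes of at least 10 reads. The one in the share of reads was 0.0052 points on the normalized clone count and -0.034 points at 18 or more residues, where the share itself is smaller (-7.83% of the d95 share, against -8.17% for 17 or more). Without clonotypes of 1 read, an alternative chosen after seeing the data, the difference in the share of clonotypes was 0.148 points. The cause was not tested. The difference between days in the percent of long receptors found in another library ran from -1.30 to -0.73 points over libraries left out of the comparison. It passed, at -1.30 points, without d95 PTX replicate 1, with depth differing between the days. Leaving out single libraries, called segments within long CDR3s ran from 0 to 3 for d105 PLX+PTX against PTX (1 without the filter), from 0 to 1 for d95 R and NR against PLX+PTX, and from 5 to 11 for d105 against d95. Among single segments, long over 12 to 16 residues, TRBJ1-3 turned to 0.030 with DESeq2, and TRBJ2-1 to 0.083 with DESeq2 and 0.18 on shares of reads. Of the 25 segments called, 22 passed with DESeq2 (not TRBJ1-3, TRBJ1-4 or TRBV23) and 23 with edgeR TMM (not TRBJ1-3 or TRBJ2-1). On shares of reads 23 passed (not TRBJ1-4 or TRBV23), and at 18 or more residues 24 passed (not TRBV23). With DESeq2 and on shares of reads, TRBJ2-1 passed in the opposite direction to the main fit. Repeats at 18 or more residues within libraries, the comparison within lower mouse numbers and the ordered cores without the shallow library were also chosen after seeing the data. No paired analysis was possible because the labels give no replicate number that groups share. The shallowest library, with 67 long clonotypes, limits the precision of its shares.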
